A study of Rattus norvegicus with 3 samples.

Results

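The cells described here are stromal cells of the postnatal rat cochlea that carry transcripts of Ramp3, Gpc3 and Lepr together. They were chosen by those transcripts in the P7 library. A cell was selected when Ramp3 and Gpc3 each had at least 8 unique molecular identifiers (UMIs) per 10000 UMIs of the cell (written p10k), when Lepr had at least 1 UMI, and when the endothelial genes Cldn5, Cdh5, Flt1 and Kdr had at most 2 UMIs in sum. Cells were kept where the number of detected genes lay above 500 and below 5000 and mitochondrial transcripts made up under 25% of UMIs. Of the 12581 P7 cells kept, 1497 were selected, which is 11.9% (exact 95% interval 11.3% to 12.5%). Over all 3 libraries 30641 cells were kept. The same rule took 166 of 12779 cells at P1 (1.30%, 1.11% to 1.51%) and 19 of 5281 at P14 (0.360%, 0.217% to 0.561%).

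The libraries came from untreated Sprague-Dawley rats at postnatal days 1, 7 and 14, with 40 rats taken per age, female and/or male according to the methods, and with no gene altered in any group. The basal membrane of the cochlea was dissociated with collagenase, papain and DNase, erythrocytes were lysed, dead cells were removed, and 1 library per age was made with 10x Genomics 3' chemistry. The labels call the cell type of every library greater epithelial ridge cell, an epithelial cell, and this was checked against markers below. With 1 library per age, age and library cannot be told apart, no test between ages or groups was possible, and all intervals are exact 95% intervals that cover counting error only. Where a count was 0, the limit given is the level that 3 counts would make.

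Ramp3 is a receptor activity-modifying protein, a single-pass membrane protein that pairs with the receptors Calcrl or Calcr and sets whether they answer to adrenomedullin, calcitonin gene-related peptide or amylin. Lepr is the receptor of leptin and signals through Jak2 and Stat3, and Gpc3 is a heparan sulfate glypican tethered to the membrane that binds hedgehog and Wnt ligands. Col15a1 encodes a collagen found at basement membranes, and in the cochlea mesenchymal cells lie under the epithelium, line the fluid spaces and form the fibrocytes of the lateral wall and limbus.

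The promoters of the 3 selecting genes and of Col15a1 are shown because these genes were high in the same cells. They are RefSeq sequences of the GRCr8 build, from 250 bases before to 50 bases after the annotated start, written 5' to 3' on the strand of the gene. Capitals mark the GC box GGGCGG or its reverse complement CCGCCC. Ramp3 lies at chr14:85741064-85741363 on the plus strand, Lepr at chr5:121409485-121409784 on the plus strand, Gpc3 at chrX:137157549-137157848 on the minus strand and Col15a1 at chr5:66297296-66297595 on the plus strand.
Ramp3: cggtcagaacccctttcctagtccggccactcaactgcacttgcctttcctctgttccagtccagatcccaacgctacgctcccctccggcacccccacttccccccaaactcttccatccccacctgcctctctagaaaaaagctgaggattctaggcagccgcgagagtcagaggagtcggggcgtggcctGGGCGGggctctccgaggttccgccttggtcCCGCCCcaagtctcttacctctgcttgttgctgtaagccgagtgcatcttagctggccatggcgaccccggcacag
Lepr: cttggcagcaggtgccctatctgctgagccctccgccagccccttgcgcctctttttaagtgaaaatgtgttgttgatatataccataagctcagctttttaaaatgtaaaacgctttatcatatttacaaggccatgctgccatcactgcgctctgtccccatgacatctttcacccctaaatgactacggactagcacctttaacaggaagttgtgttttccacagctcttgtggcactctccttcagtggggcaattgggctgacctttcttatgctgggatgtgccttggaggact
Gpc3: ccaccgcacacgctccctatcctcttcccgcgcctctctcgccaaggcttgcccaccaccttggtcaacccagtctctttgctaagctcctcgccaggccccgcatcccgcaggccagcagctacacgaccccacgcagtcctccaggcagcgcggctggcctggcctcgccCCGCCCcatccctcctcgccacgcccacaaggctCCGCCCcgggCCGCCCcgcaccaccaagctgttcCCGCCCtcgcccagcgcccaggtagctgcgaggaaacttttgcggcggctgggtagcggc
Col15a1: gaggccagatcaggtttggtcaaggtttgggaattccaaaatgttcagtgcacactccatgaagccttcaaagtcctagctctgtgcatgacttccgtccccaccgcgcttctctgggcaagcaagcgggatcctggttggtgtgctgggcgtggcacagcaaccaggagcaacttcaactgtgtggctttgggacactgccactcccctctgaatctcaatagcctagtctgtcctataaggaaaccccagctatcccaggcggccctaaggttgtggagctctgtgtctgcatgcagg

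The 4 windows differed in base composition. The Gpc3 window had 71.0% G and C with 27 CpG, the Ramp3 window 61.7% with 16 CpG, the Col15a1 window 55.0% with 6 CpG and the Lepr window 47.7% with 5 CpG. GC boxes numbered 4 in Gpc3 and 2 in Ramp3 and were 0 in Lepr and in Col15a1. Of 33469 rat promoters of this length 33.1% held a GC box on either strand. The STAT motif TTCNNNGAA, searched on both strands, was in none of the 4 windows and in 8.87% of all promoters. The TATA box TATAAA was also in none of the 4, against 14.2% of all promoters. The CCAAT box, spelled CCAAT, was found 1 time, in Lepr (37.5% of all promoters), and the E-box CANNTG 3 times in Ramp3, 2 times in Lepr, 1 time in Col15a1 and 0 times in Gpc3 (72.1% of all promoters). No motif searched was shared by all 4 windows.

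The libraries held 114285848 UMIs at P1, 101264868 at P7 and 12616390 at P14. The selected P7 cells had a median of 7146 UMIs (range 804 to 27598) and 2443 genes, against 6798.5 UMIs in the other kept P7 cells. The selected P1 cells had a median of 7422 UMIs and the selected P14 cells 1183. At the median depth of all kept cells of a library, 8 p10k stood for 5.25 UMIs at P1 and for 1.29 UMIs at P14. The matrices held 14068 barcodes at P1, 14501 at P7 and 6358 at P14, while loading aimed at 5000 cells per library. P1 and P7 shared 60 barcodes, P1 and P14 19, and P7 and P14 25. Of the 60, 2 were selected P1 cells and 5 selected P7 cells, and 1 of the 25 was a selected P7 cell, with 0 selected in both libraries of a pair. Scrublet marked 71 of the 1497 selected P7 cells as doublets (4.74%, 3.72% to 5.95%), against 6.16% of all kept P7 cells, and 4 of the 166 selected P1 cells. Because the P14 group holds 19 shallow cells and 24106 UMIs, in which 1 UMI is 41.5 CPM (counts per 1000000 UMIs of the summed cells), its levels are given once, at the end, with their UMI counts and intervals.

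The selecting genes overlapped at P7. Ramp3 reached 8 p10k in 2244 kept cells and Gpc3 in 2797, and 1773 cells reached both. Lepr had a UMI in 1503 of those 1773 cells, and the limit on endothelial UMIs then removed 6. Failing Lepr alone left out 270 cells, failing Gpc3 alone 196 and failing Ramp3 alone 638. Among the selected P7 cells Ramp3 ran from 8.01 to 71.0 p10k with a median of 16.1, Gpc3 from 8.05 to 65.1 with a median of 18.9, and Lepr from 1 to 23 UMIs with a median of 3. The selected P1 cells lay closer to the limit, with medians of 11.1 p10k for Ramp3, 13.4 p10k for Gpc3 and 2 UMIs for Lepr.

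**Figure D1:**
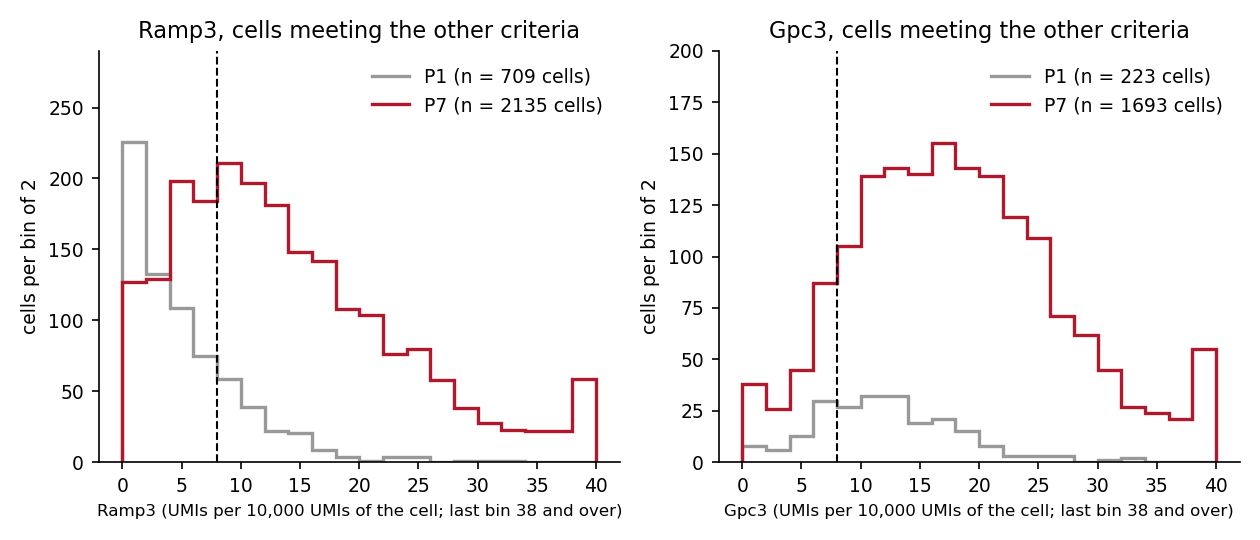
Cells per bin of 2 p10k by their Ramp3 level (left, among cells that meet every other criterion) and Gpc3 level (right, likewise) at P1 (grey) and P7 (red), with the limit of 8 p10k as a dashed line and the last bin holding cells at 38 p10k and over. At P7 both genes ran through the limit without a gap, with 184 cells at 6 to 8 p10k and 211 at 8 to 10 p10k for Ramp3, and 87 and 105 for Gpc3.

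No gap in Ramp3 or Gpc3 separated the selected cells from those just outside, as the plot of cells by level shows. Col15a1, which the rule did not use, was at 285 CPM (260 to 311) in the 211 selected cells with Ramp3 at 8 to 10 p10k and at 178 CPM (158 to 200) in the 184 cells with Ramp3 at 6 to 8 p10k. On either side of the Gpc3 limit it was at 198 CPM (169 to 230) in 105 cells inside and at 263 CPM (228 to 302) in 87 cells outside. For Lepr, the 280 selected cells with 1 UMI had 283 CPM of Col15a1 and the 270 cells with none, which met the other criteria, 192 CPM (171 to 215). The 760 selected cells with Ramp3 at 16 p10k or more had 504 CPM (485 to 523). The rule therefore cuts a range of levels, and cells with much of the same transcripts remain among the other kept cells.

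Markers placed the selected cells with fibroblasts. The summed level of 8 fibroblast genes was 12149 CPM in the selected P7 cells and 2677 CPM in the other kept cells, with Dcn and Col3a1 giving most of it. Of the 8 genes 5 were past 2-fold higher, Pi16 and Dpt were within 2-fold, and Col1a1 was lower, at 69.0 CPM against 169. The 12 genes of cochlear epithelium, among them Epcam, Sox2 and Oc90, summed to 76.1 CPM against 677 CPM, with none of the 12 at 0 in either group, which goes against the cell type in the labels for these cells. After thinning each cell to 1000 UMIs, which left out 6 selected cells with fewer, Epcam had a UMI in 0.738% of selected cells (0.369% to 1.32%; 3.94% before thinning) and in 0.549% (2.01%) of C1q macrophage-rule cells, which had 8 p10k or more of C1qa, C1qb and C1qc in sum. The 12 hair cell genes summed to 147 CPM (140 to 155) against 128 CPM (126 to 131) in the other kept cells, of which Myo6 was 123 CPM against 84.5 CPM, and Otof, Pou4f3, Atoh1, Gfi1, Tmc1 and Slc26a5 were at 0 in the selected cells. Endothelial genes, 4 of which the rule held down, summed to 26.7 CPM against 239, pericyte and smooth muscle genes to 52.5 CPM against 285, and macrophage genes to 47.6 CPM against 285. Glial genes summed to 1041 CPM against 6512, with Pmp22 at 620 CPM against 2281. Cartilage genes summed to 5033 CPM against 4484, of which Col9a1 was 4525 CPM against 3424. The osteoblast genes summed to 432 CPM against 273, and of these Spp1 was at 223 CPM, Dmp1 at 189 CPM, Ibsp at 9.61 CPM and Runx2 at 6.21 CPM.

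The first comparison set the selected P7 cells against the 11084 other kept P7 cells, a mix of all other cell types in 1 library. UMIs were summed over cells, given as CPM, and compared as a log2 ratio with 10 CPM added to both sides, over 7981 genes at 10 CPM or more in either group. A gene was called higher or lower when it passed 2-fold on that scale. Of these genes 192 (2.41%) were higher and 301 (3.77%) lower in the selected cells, with a median log2 ratio of -0.06. The sum, 493 genes, was 825 with 1 CPM added in place of 10. The selecting genes are among the higher ones by construction, with Ramp3 at 1809 CPM against 211, Gpc3 at 1959 CPM against 261 and Lepr at 521 CPM against 56.0.

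Col15a1 was the leading gene outside the rule. It was at 412 CPM (401 to 424) in the selected P7 cells and 46.0 CPM in the other kept P7 cells, a log2 ratio of 2.92, and at 141 CPM (122 to 163) in the selected P1 cells against 19.2 CPM in the other kept P1 cells. Of the selected P7 cells 979 had a Col15a1 UMI. After thinning, the share with a UMI was 28.8% (26.6% to 31.2%; 65.4% before thinning) in the selected cells and 3.76% (14.7%) in the other kept cells. It was 1.10% (7.54%) in the C1q macrophage-rule cells, with a median of 5964 UMIs before thinning. The share in the selected cells stood above both of these at matched depth. At P1 it was 15.7% (10.5% to 22.1%; 48.2% before thinning).

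Aard, a gene of little known role, was at 612 CPM (598 to 627) in the selected P7 cells and 80.5 CPM in the others, and at 451 CPM against 55.2 CPM at P1. It had a UMI in 36.7% of thinned selected cells (81.2% before thinning) against 6.24% of the other kept cells and 2.20% of macrophage-rule cells. Pltp, a phospholipid transfer protein, was at 1097 CPM against 215 CPM at P7 and at 782 CPM against 107 CPM at P1. It is also a macrophage transcript, with a UMI in 57.9% of thinned selected cells and 56.6% of thinned macrophage-rule cells. Edn3, a peptide ligand of endothelin receptors, was at 215 CPM against 36.3 CPM at P7 and at 298 CPM against 43.5 CPM at P1. Gpx3, a secreted glutathione peroxidase, was at 228 CPM against 29.7 CPM, C7, a component of complement, at 74.9 CPM against 7.85 CPM, and Hpca, a neuronal calcium sensor, at 53.1 CPM against 4.26 CPM. Apod, a lipocalin, was at 8379 CPM against 1385 CPM at P7 and at 2609 CPM against 738 CPM at P1. All 7 of these genes were past 2-fold at P1 as well, with log2 ratios from 1.76 for Hpca to 2.82 for Aard.

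Among the genes lower in the selected cells were those of myelin and glia. Mbp, myelin basic protein, was at 89.5 CPM against 768 CPM and the glial transcription factor Sox10 at 9.35 CPM against 106 CPM. Ccn3, a matricellular protein, was at 152 CPM against 1483 CPM at P7 and at 178 CPM against 1783 CPM at P1. The Wnt inhibitor Sfrp1 was at 17.1 CPM against 181 CPM, and the BMP antagonist Sostdc1 at 21.6 CPM against 206 CPM.

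**Figure D2:**
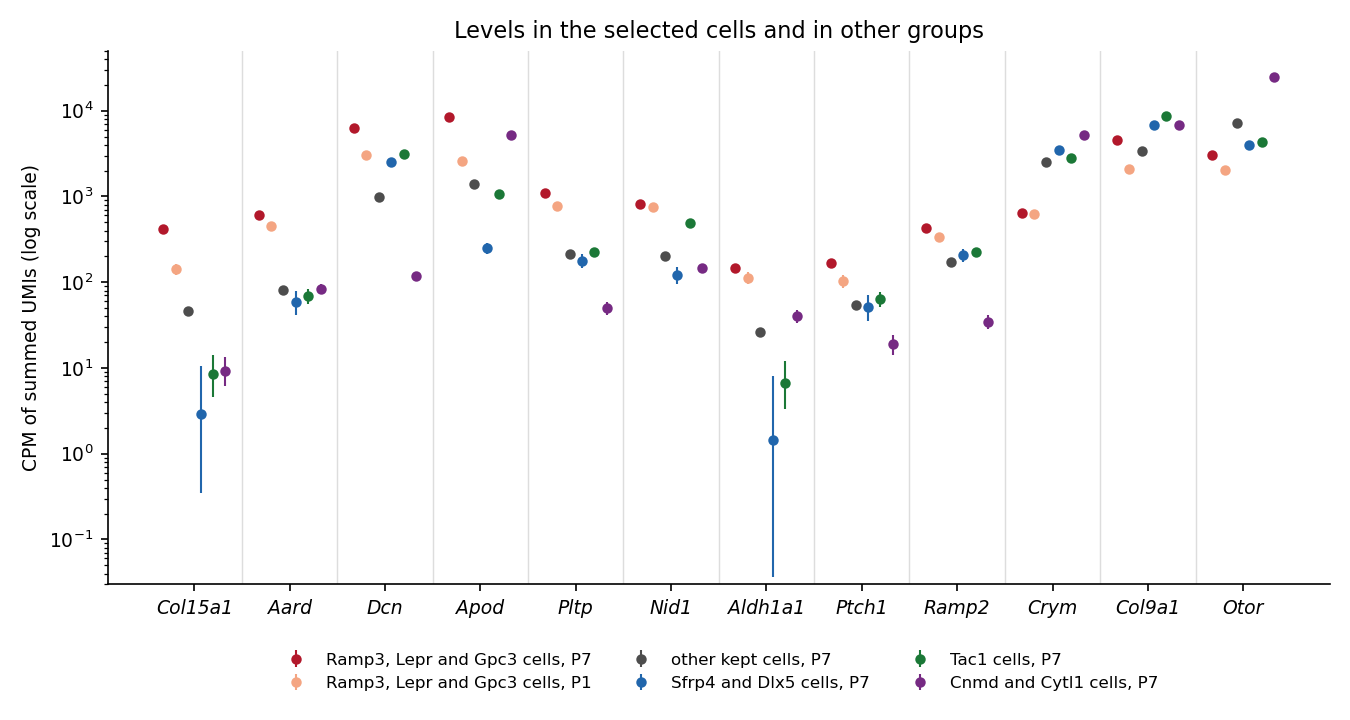
Level of 12 genes as CPM of summed UMIs (log axis) in the selected cells at P7 and P1, the other kept P7 cells and 3 other P7 groups, with bars for the exact 95% counting interval. Col15a1 stood at 412 CPM in the selected P7 cells and at 2.91 to 46.0 CPM in the other P7 groups, whereas Crym and Otor were lower in the selected P7 cells than in each of those P7 groups.

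The genes around Ramp3 did not all move with it. Of 15 genes of the calcitonin and adrenomedullin pathway 7 reached 10 CPM, and 3 of them (Ramp3, Ramp2 and Gnas) were higher and 0 lower, with a median log2 ratio of 0.38, and Ramp3 is there by the rule. Ramp2, the adrenomedullin partner of Calcrl, was at 423 CPM (411 to 435) against 173 CPM at P7 and at 341 CPM against 154 CPM at P1. Gnas, which encodes the stimulatory G protein subunit, was at 849 CPM against 316 CPM at P7 and at 1106 CPM against 347 CPM at P1. The receptor Calcrl itself was at 9.53 CPM (7.82 to 11.5) against 15.5 CPM and had a UMI in 1.01% of thinned selected cells (6.68% before thinning), 1.55% of the other kept cells and 1.65% of macrophage-rule cells. Calcr had 0 UMIs in the selected cells, which allows up to 0.262 CPM, and the ligand Adm was at 6.99 CPM against 8.57 CPM. The Ramp3 and Ramp2 transcripts were thus high where the receptor transcript was not higher than in the other kept cells.

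Of 15 compared genes of leptin and JAK-STAT signaling 1, Lepr, was higher by the rule and 0 were lower, with a median log2 ratio of 0.23. Socs1, an inhibitor induced by cytokine receptors, was at 39.2 CPM against 18.8 CPM, Il6st, the shared receptor of the interleukin 6 family, at 38.4 CPM against 19.8 CPM and Stat3 at 39.5 CPM against 31.1 CPM, all within 2-fold on the log2 scale used. At P1 Il6st was past 2-fold higher in the selected cells than in the other kept cells. From P1 to P7 it fell past 2-fold in the selected cells, while 0 of 14 genes of this list were past 2-fold in the other kept cells. The ligand gene Lep had 0 UMIs in the selected and the other kept cells at P1 and P7. Among 9 compared genes known from Lepr stroma of bone marrow, 3 were higher and 1 lower, with a median of 0.20. Vcam1, an adhesion molecule, was at 235 CPM against 51.9 CPM, the growth factor receptor Pdgfra at 347 CPM against 97.6 CPM and the chemokine Cxcl12 at 71.8 CPM against 30.1 CPM. Angpt1, a ligand of the Tek receptor, was at 1.84 CPM against 14.8 CPM, and Kitlg, a ligand of Kit, at 6.12 CPM against 9.63 CPM. Vcam1, Pdgfra and Cxcl12 were past 2-fold at P1 as well, with log2 ratios of 1.36, 1.49 and 1.01.

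Of 13 compared glypicans and heparan sulfate genes, with a median of 0.26, Gpc3 was higher by the rule and the syndecan Sdc4, with a log2 ratio of -1.09, lower. Gpc1 was at 45.7 CPM against 47.1 CPM and Gpc4 at 15.8 CPM against 9.73 CPM. Hedgehog targets were among the higher genes, with 3 of 6 compared genes of the pathway higher and 1 lower and a median of 1.06. Ptch1, the hedgehog receptor and a target of the pathway, was at 166 CPM (159 to 174) against 54.1 CPM and the transcription factor Gli1 at 54.1 CPM against 19.6 CPM. Hhip, a decoy receptor, was at 15.4 CPM against 2.71 CPM, just under 2-fold on the log2 scale used. At P1 the levels were 102 CPM against 35.1 CPM for Ptch1, 25.5 CPM against 6.21 CPM for Gli1 and 25.5 CPM against 2.73 CPM for Hhip, all 3 past 2-fold. The ligand Dhh was lower at P7, at 7.52 CPM against 54.1 CPM, and Shh and Ihh had 0 UMIs in the selected cells at P7.

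Matrix genes were counted by kind. Of 14 compared basement membrane genes 4 were higher (Col15a1, Lama2, Nid1 and Nid2) and 0 lower, with a median of 0.46. Nid1, a nidogen that links laminin to collagen IV, was at 813 CPM (796 to 829) against 204 CPM at P7 and at 754 CPM against 197 CPM at P1. Nid2 was at 124 CPM against 39.4 CPM and the laminin chain Lama2 at 259 CPM against 114 CPM, while Col4a1 was at 753 CPM against 400 CPM and did not reach 2-fold at P7. The interstitial collagens did not move as 1 group. Of 14 interstitial collagens 5 were higher and 2 lower, with a median of 0.49. Col3a1 was at 4452 CPM against 1063 CPM and Col6a2 at 249 CPM against 88.5 CPM, whereas Col1a1 was at 69.0 CPM (64.2 to 73.9) against 169 CPM and Col5a3 at 38.1 CPM against 120 CPM. The small leucine-rich proteoglycan Dcn was at 6254 CPM (6208 to 6300) against 973 CPM and Lum at 484 CPM against 101 CPM, while Epyc was at 15.4 CPM against 90.7 CPM. Of 7 small leucine-rich proteoglycans 2 were higher and 1 lower, with a median of 0.48. Of 11 cartilage matrix genes 0 were higher and 4 lower, with a median of -0.34, with Cnmd at 29.5 CPM against 334 CPM and Col11a2 at 66.3 CPM against 333 CPM. Of 18 proteases and inhibitors 5 were higher and 1 lower, with a median of 0.63, with the protease inhibitor Serpine2 at 3120 CPM against 1347 CPM and the cysteine protease Ctsk at 585 CPM against 246 CPM.

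Growth factor genes were counted by family. Of 10 compared genes of the IGF axis 5 were higher and 0 lower, with a median of 0.94. Igf1 was at 606 CPM (592 to 620) against 190 CPM at P7 and at 757 CPM against 253 CPM at P1, Igf2 at 403 CPM against 138 CPM at P7 and the binding protein Igfbp7 at 920 CPM against 352 CPM. Of 19 Wnt genes 4 were higher and 7 lower, with a median of -0.53, and the same counts were found at P1. The higher ones were the ligands Wnt4 and Wnt5a (159 CPM against 57.3 CPM), the antagonist Frzb (263 CPM against 75.2 CPM) and Rspo3 (65.6 CPM against 11.5 CPM), which boosts Wnt signaling. The lower ones included the pathway targets Axin2 (9.35 CPM against 33.6 CPM), Notum (5.77 CPM against 70.9 CPM) and Nkd1 (7.52 CPM against 54.4 CPM) and the inhibitor Wif1 (12.8 CPM against 71.4 CPM). Of 18 BMP and TGF-beta genes 0 were higher and 3 lower, with a median of -0.30, with the BMP targets Id2 at 17.6 CPM against 110 CPM and Id4 at 19.4 CPM against 133 CPM.

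Of 14 compared genes of retinoic acid handling 3 were higher and 2 lower, with a median of 0.32. Aldh1a1, a retinaldehyde dehydrogenase, was at 146 CPM (139 to 153) against 26.2 CPM and had a UMI in 12.3% of thinned selected cells (46.4% before thinning), 2.32% of the other kept cells and 1.10% of macrophage-rule cells. Aldh1a2, another enzyme of that step, was at 8.30 CPM against 76.9 CPM. At P1 Aldh1a1 stood at 113 CPM against 22.7 CPM and Aldh1a2 at 12.8 CPM against 110 CPM. Of 17 fibrocyte and inner ear stroma genes 1, the gap junction gene Gjb2 at 306 CPM against 113 CPM, was higher and 9 were lower, with a median of -1.12. Otor, otoraplin, was at 3008 CPM against 7188 CPM, Otos, otospiralin, at 20.2 CPM against 346 CPM and Coch, cochlin, at 11.3 CPM against 66.8 CPM. The share of cells with Otor went the other way from its summed level. After thinning, 81.0% of selected cells (98.8% before thinning) and 65.6% of the other kept cells (90.1%) had an Otor UMI. Of 4 genes of thyroid hormone handling 0 were higher and 2 lower, with a median of -1.07, and these were the receptor Thrb (12.8 CPM against 43.4 CPM) and Crym. Crym, a thyroid hormone binding protein, was at 644 CPM (629 to 658) against 2552 CPM at P7 and at 633 CPM against 2745 CPM at P1. Of 21 mesenchymal transcription factors 1 was higher (Foxd1, 199 CPM against 90.2 CPM) and 2 lower, with a median of 0.21, with Tbx18 at 433 CPM against 289 CPM and Pou3f4 at 347 CPM against 299 CPM. Of 15 axon guidance genes 0 were past 2-fold either way, with a median of -0.32.

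Most of the genes higher in the selected cells were shared between the P7 and P1 libraries. The same rule chose the cells in both, so overlap in genes that go with the selecting genes follows in part from the selection. Selected against other kept cells at P1, over 7830 genes, 172 genes (2.2%) were higher and 329 (4.2%) lower, with a median of -0.03. Over 7204 genes compared in both libraries, leaving out the genes of the rule, 128 were higher in both, which is 74.0% of the 173 higher at P7 and 76.6% of the 167 higher at P1. In the other direction 177 were lower in both, which is 67.8% of the 261 at P7 and 66.8% of the 265 at P1. The log2 ratios of the 2 libraries had a Pearson correlation of 0.80 and a Spearman correlation of 0.63 across these 7204 genes, which are not independent replicates.

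The second comparison set the selected cells at P7 against those at P1. The share of cells selected was 9.16 times as high at P7 as at P1. Since Ramp3 and Gpc3 were lower in the selected P1 cells, a fixed limit takes different parts of their range at each age, and whether there were more such cells or more transcript per cell cannot be told apart. With the limit at 16 p10k the ratio was 60.9, resting on 9 P1 cells, and with the limit at 4 p10k it was 4.41. Over 7785 genes 304 (3.9%) were higher and 170 (2.18%) lower at P7, with a median of 0.08, and with that median taken off 245 were higher and 247 lower. The sum, 474 genes, was 1368 with 1 CPM added, 1482 after thinning and 2877 with limits of 16 p10k. The other kept cells of the same libraries changed too, with 249 of 8249 genes (3.02%) higher, 167 (2.02%) lower and a median of 0.10, so the changes below are given beside theirs. Both changes use the same 2 libraries.

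Matrix genes moved both ways from P1 to P7 in the selected cells. Of 15 compared interstitial collagens 3 rose and 3 fell, with a median of 0.19, against 0 and 1 of 14 in the other kept cells, with a median of -0.17. Of 12 basement membrane genes 1 rose and 1 fell, with a median of 0.42, against 1 and 1 of 14 in the other kept cells, with a median of 0.18. Of 6 small leucine-rich proteoglycans 1 rose, against 2 of 7, and of 18 proteases and inhibitors 1 rose, against 0 of 16, with 0 falling in either list in both. Col15a1 rose from 141 CPM to 412 CPM, a log2 ratio of 1.48, against 0.94 in the other kept cells. Dcn rose from 3006 CPM (2914 to 3101) to 6254 CPM, log2 1.05 against 1.02, Apod from 2609 CPM to 8379 CPM, log2 1.68 against 0.90, and Col3a1 from 2034 CPM to 4452 CPM, log2 1.13 against 0.67. Among selected P7 cells Apod was at 5255 CPM with Ramp3 at 8 to 10 p10k and 10720 CPM at 16 p10k or more. Likewise, Col15a1 was at 285 CPM and 504 CPM, Dcn at 5575 CPM and 6698 CPM, and Col9a1 at 4964 CPM and 4095 CPM. The selected P1 cells lay closer to the limit, and the part this has in the changes from P1 to P7 was not tested. Of 11 cartilage matrix genes 8 rose and 0 fell in the selected cells, with a median of 1.24, and 5 rose and 0 fell in the other kept cells, with a median of 0.90. Col2a1, among the 8, had a log2 ratio of -0.060 with limits of 16 p10k, which left 9 P1 cells. Col11a1 rose from 173 CPM (151 to 197) to 592 CPM (578 to 606), log2 1.72 against 0.52, Sox9, a transcription factor of cartilage, from 57.9 CPM to 215 CPM, log2 1.73 against 1.17, and Col9a1 from 2082 CPM to 4525 CPM, log2 1.12 against 0.90. Col1a1 went the other way, from 283 CPM (255 to 313) to 69.0 CPM, log2 -1.89 against -0.57. Col6a1 fell from 166 CPM to 70.6 CPM and Col4a2 from 177 CPM to 62.6 CPM, both with a like change in the other kept cells (log2 -1.13 against -1.14 and -1.37 against -1.19).

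Other genes rose in the selected cells by more than in the rest. Htra1, a secreted serine protease, rose from 48.1 CPM (37.0 to 61.4) to 273 CPM (263 to 282), log2 2.28 against 0.34. F3, tissue factor, rose from 5.26 CPM to 79.3 CPM, log2 2.55 against 0.93, and Ramp1, a further partner of Calcrl, from 29.3 CPM (20.8 to 40.1) to 117 CPM (111 to 124), log2 1.70 against 0.71. The selected cells had less Htra1 than the other kept cells at P1 (48.1 CPM against 197 CPM) and about as much at P7 (273 CPM against 253 CPM). The receptor tyrosine kinase Kit rose from 15.8 CPM to 117 CPM, log2 2.30 against 1.73, the matrix phosphoprotein Dmp1 from 26.3 CPM to 189 CPM, log2 2.45 against 1.94, and Gjb2 from 103 CPM to 306 CPM, log2 1.48 against 1.03. With the change of the other kept cells subtracted gene by gene, a step added after seeing the data, 79 genes were past 2-fold, 39 higher and 40 lower. Among these, and named after their values were seen, the sterol synthesis genes Idi1, at 105 CPM at P1 (log2 -1.20 against 0.46), and Hmgcs1, from 107 CPM to 44.6 CPM (log2 -1.11 against 0.22), fell, as did Csrp2, a LIM domain gene, from 352 CPM to 132 CPM (log2 -1.35 against 0.26).

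Immediate early genes, which turn on within minutes of a stimulus and also on tissue dissociation, were lower at P7. Of 15 compared genes of a list added after seeing the data 0 rose and 8 fell in the selected cells, with a median of -1.07, and 1 rose and 4 fell of 16 in the other kept cells, with a median of -0.80. Egr1 fell from 943 CPM to 174 CPM, log2 -2.37 against -2.28, and Fos from 1564 CPM to 361 CPM, log2 -2.08 against -1.70. Among the largest falls were those of single linker histone genes, which were not counted as a group, Hist1h1e from 437 CPM to 41.8 CPM (log2 -3.11 against -2.06), and Hist1h1b from 153 CPM to 8.13 CPM (log2 -3.17 against -1.72). Globin transcripts stood apart at P1, where the erythroid genes summed to 55.6 CPM in the selected cells and 784 CPM in the other kept cells, against 1467 CPM and 1583 CPM at P7, and the glial genes summed to 481 CPM and 1423 CPM at P1 against 1041 CPM and 6512 CPM at P7. Of 2 compared Y-linked genes, Eif2s3y and Kdm5d, 0 rose and 2 fell in the selected cells and likewise in the other kept cells, with medians of -1.97 and -1.49. Eif2s3y fell from 58.6 CPM to 1.40 CPM, log2 -2.59 against -1.96. The methods do not divide the rats by sex, so age and the sex mix of the libraries cannot be told apart. With limits of 16 p10k, which left 9 P1 cells, the log2 ratio of Eif2s3y in the selected cells was 0.10. Histone, globin and sex-linked genes have near-identical copies that the counting can split, and whether this bears on their changes was not tested. The part that immediate early, globin, glial and Y-linked transcripts have in the other differences was not tested.

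**Figure D3:**
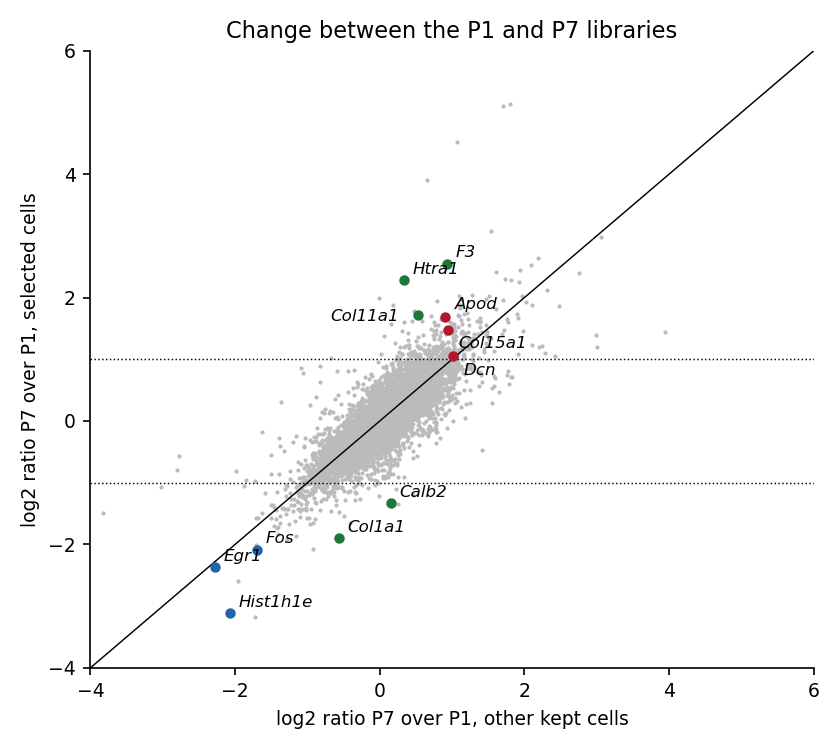
The log2 ratio of P7 over P1 in the selected cells (vertical) against that in the other kept cells of the same libraries (horizontal) for 7785 genes, with the line of equal change, dotted lines at 2-fold and 11 genes labelled (red for genes high in the selected cells, blue for others past 2-fold in both, green for the rest). Dcn (1.05 and 1.02) and Egr1 (-2.37 and -2.28) lay near the line, whereas Htra1 (2.28 and 0.34) and Col11a1 (1.72 and 0.52) lay above it and Calb2 (-1.34 and 0.15) below.

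Cell cycle transcripts were lower in sum in the selected cells than in the other kept cells at P7, by less than 2-fold. The 10 proliferation genes summed to 503 CPM (490 to 516) against 669 CPM (663 to 675) at P7, and to 687 CPM (644 to 733) against 508 CPM (504 to 513) at P1. Of these 10 proliferation genes 0 were past 2-fold between selected and other kept cells at P7, with a median of -0.36, and 2 (Mki67 and Top2a) fell from P1 to P7 in the selected cells, with a median of -0.11 over the 10, whereas 2 (Cdk1 and Ube2c) rose and 0 fell in the other kept cells, with a median of 0.34. After thinning, 69 of 1491 selected P7 cells had 2 or more UMIs of these genes (4.63%, 3.62% to 5.82%; 9.89% before thinning) against 6.72% (6.25% to 7.20%) of the other kept cells, and 15 of 166 selected P1 cells (9.04%, 5.15% to 14.5%) against 6.23%. Between P1 and P7 the intervals of the summed level in the selected cells did not overlap, whereas those of the thinned share did.

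The third set of comparisons used 3 other stromal groups of the P7 library, each chosen by its own genes outside the selected cells and with the same limit on endothelial UMIs. There were 81 cells with Sfrp4 at 8 p10k or more and at least 1 UMI of Dlx5, 216 with Tac1 at 8 p10k or more, and 302 with both Cnmd and Cytl1 at 8 p10k or more. Cells that met more than 1 of these rules (5, 6 and 1 of them, in that order) were left out. Of the selected cells 3 met the Sfrp4 and Dlx5 rule, 55 (3.67%) the Tac1 rule and 0 of 1497 the Cnmd and Cytl1 rule, which allows up to 0.2%. The genes that chose a group differ by construction and are not named below.

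Against the Sfrp4 and Dlx5 cells, 297 of 8022 genes (3.7%) were higher and 188 (2.34%) lower in the selected cells, with a median of -0.02. The sum, 485 genes, was 1053 with 1 CPM added in place of 10 and 2311 after thinning, which leaves 80 cells of 1000 UMIs in the smaller group. Col15a1 had 2 UMIs in the 81 cells, so the ratio of CPM was 142 with a counting interval of 39.2 to 1169. Aldh1a1 had 1 UMI there, a ratio of 100.3 (18.0 to 3963), and Inmt, a methyltransferase, had 2, a ratio of 36.5 (10.1 to 302). Apod was at 8379 CPM against 248 CPM (212 to 288) and Igfbp7 at 920 CPM against 90.3 CPM. Of 12 compared basement membrane genes 7 were higher and 0 lower, with a median of 1.30. Of 6 hedgehog genes 2 were higher and 0 lower, and of 11 IGF axis genes 2 were higher and 3 lower. Of 18 Wnt genes 3 were higher and 5 lower, 1 of which chose the group, with a median of -0.50. Of 16 fibrocyte and inner ear stroma genes 6 were higher and 3 lower, with a median of 0.78. Of the 7 osteoblast markers 5 reached 10 CPM in either group, and 4 of these were lower in the selected cells and 0 higher. Ibsp was at 9.61 CPM against 191 CPM, Alpl, the phosphatase of mineralizing cells, at 2.88 CPM against 112 CPM, Runx2, the osteoblast transcription factor, at 6.21 CPM against 96.1 CPM and Spp1 at 223 CPM against 596 CPM. Dmp1, of the same list, was at 189 CPM (181 to 197) against 128 CPM (103 to 158), within 2-fold. Col1a1 was at 69.0 CPM against 629 CPM (571 to 691). Gdf10, a BMP-like ligand, was at 18.3 CPM against 718 CPM.

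The Tac1 cells were the closest of the 3 by the number of genes past 2-fold, with 166 of 7776 genes (2.13%) higher and 90 (1.16%) lower and a median of -0.03. The sum, 256 genes, was 544 with 1 CPM added and 733 after thinning. Col15a1 was at 412 CPM against 8.47 CPM (4.63 to 14.2), Aldh1a1 at 146 CPM against 6.66 CPM, Aard at 612 CPM against 68.4 CPM and Apod at 8379 CPM against 1062 CPM. Dcn was at 6254 CPM against 3131 CPM, just under 2-fold on the scale used. Crym was at 644 CPM against 2802 CPM, Mme, a membrane peptidase, at 73.9 CPM against 353 CPM, and Spp1, osteopontin, at 223 CPM against 953 CPM. Of 13 basement membrane genes 3 were higher and 0 lower, and of 11 cartilage matrix genes 0 were higher and 4 lower, with Col2a1 at 444 CPM against 1136 CPM. Of 5 hedgehog genes 1 was higher and 0 lower, with a median of 0.33. Of 10 IGF axis genes 2 were higher and 0 lower, with a median of -0.03. Of 18 Wnt genes 5 were higher and 4 lower, with a median of -0.34. Of 16 fibrocyte and inner ear stroma genes 3 were higher and 1 lower, with a median of -0.20.

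Against the Cnmd and Cytl1 cells, 433 of 7784 genes (5.56%) were higher and 264 (3.39%) lower, with a median of 0.03. The sum, 697 genes, was 1137 with 1 CPM added. The 1 Y-linked gene compared, Eif2s3y, was lower in the selected cells, with a log2 ratio of -1.94. Dcn was at 6254 CPM against 117 CPM (105 to 130), Pltp at 1097 CPM against 49.5 CPM and fibronectin, Fn1, at 788 CPM against 51.1 CPM. Apod was within 2-fold, at 8379 CPM against 5241 CPM (5159 to 5323), and had a UMI in 90.6% of thinned cells of both groups (99.3% and 97.7% before thinning). Of 5 compared hedgehog genes 4 were higher, with Ptch1 at 166 CPM against 18.9 CPM (14.3 to 24.5), and of 13 basement membrane genes 9 were higher. Of 10 IGF axis genes 4 were higher and 1 lower. Of 16 Wnt genes 3 were higher and 1 lower, with a median of 0.43. Axin2, Notum and Nkd1 were not called lower against any of these stromal groups. Of 17 fibrocyte and inner ear stroma genes 2 were higher and 8 lower, with a median of -0.71. All 10 proliferation genes were higher, with a median of 1.65, at levels of 45.9 CPM against 9.96 CPM for Mki67 and 47.5 CPM against 7.64 CPM for Top2a. At least 2 UMIs from this list were found in 9.89% of selected cells and 8.28% of the Cnmd and Cytl1 cells, whose median depth was 10076.5 UMIs, and after thinning 4.63% and 0 of 299 cells. Otos was at 20.2 CPM against 3222 CPM, Gcg at 121 CPM (115 to 128) against 5054 CPM and Otor at 3008 CPM against 24883 CPM. Of 11 cartilage matrix genes 7 were lower, 2 of which chose the group, and the others included Col11a2 at 66.3 CPM against 1203 CPM and Col9a2 at 1065 CPM against 3558 CPM.

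The 1497 cells varied among themselves. Thinned to 1000 UMIs, 1524 genes with a mean of at least 0.1 UMI had a median ratio of variance to mean of 1.02, near that of counting alone. The highest ratios were those of globin rows, at 132 for LOC103694857, followed among the named genes by Apod at 14.0, with Col9a1 at 4.25 and Col3a1 at 3.29. Apod ran from 5.91 p10k at the 5th percentile of cells through a median of 44.8 to 294 at the 95th, Dcn from 11.0 through 63.8 to 121, and Col9a1 from 3.50 through 33.1 to 125. Lum had no UMI in 708 of the cells. Across the 1491 thinned cells Apod and Col3a1 had a Spearman correlation of 0.39, Dcn and Col3a1 of 0.34, and Col3a1 and Col9a1 of -0.23, all within 1 library. In the 166 P1 cells the same pairs had correlations of 0.09, 0.32 and -0.03.

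**Figure D4:**
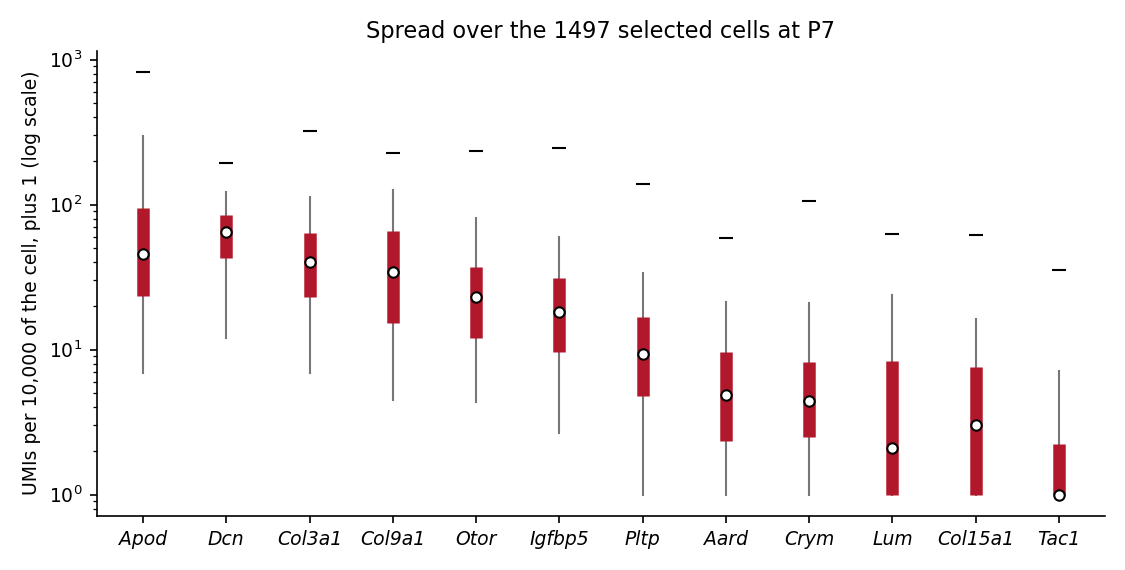
Level of 12 genes in the 1497 selected P7 cells, as p10k with 1 added (log axis), with the median as a circle, the middle 50% of cells as a red bar, the 5th to 95th percentile as a line and the maximum as a dash. Apod had a median of 44.8 and a maximum of 821 p10k, while Tac1 had a median of 0.

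A Col15a1 UMI split the cells at matched depth. Of the thinned cells 430 had one and 1061 did not, with median depths before thinning of 7025 and 7193 UMIs, and genes at 50 CPM or more in either part were compared, as a description with no call. Col9a1 was at 2349 CPM (2206 to 2498) with Col15a1 and at 5369 CPM (5230 to 5510) without, and Col2a1, the main collagen of cartilage, at 205 CPM (164 to 252) and 522 CPM (480 to 567). Tac1, which encodes substance P, was at 30.2 CPM with and 146 CPM without, Sfrp4 at 9.30 CPM and 57.5 CPM and Spp1 at 112 CPM and 296 CPM. Higher with Col15a1 were Vtn, vitronectin, at 130 CPM and 37.7 CPM, the peptidase Dpp4 at 102 CPM and 32.0 CPM, and Ramp1 at 212 CPM (170 to 260) and 83.9 CPM (67.4 to 103). Ramp3, Gpc3 and Lepr, whose limits every cell of both parts had to pass, differed by log2 ratios of 0.28, 0.22 and 0.34.

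The 19 selected P14 cells held 21 UMIs of Col15a1 (871 CPM, 539 to 1332), 243 of Dcn (10080 CPM, 8853 to 11431), 819 of Apod (33975 CPM, 31688 to 36384) and 1 of Aard (41.5 CPM, 1.05 to 231). The other kept P14 cells had 193 CPM of Col15a1, 2627 CPM of Dcn, 8681 CPM of Apod and 34.2 CPM of Aard. Crym and Otor had 1 UMI each in the 19 cells.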

How the data were processed

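The deposited matrices hold UMI counts per gene and cell barcode, made by the authors with Cell Ranger (3.1.0 in the matrix headers). The submitters' processing notes also name bcl2fastq and Seurat 3.1.1. The methods name the rn6 build. There is 1 matrix each for P1, P7 and P14. The methods give 40 rats per age, not how many went into each library, and no source gives separate replicates.

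Kept cells had over 500 and under 5000 genes and under 25% mitochondrial UMIs. The selected cells, genes and lists were chosen with earlier results of these data known. Counts were summed over cells and given as CPM with exact Poisson intervals. Shares have Clopper-Pearson intervals. Genes at 10 CPM or more in either group were compared as log2 ratios with 10 CPM added and called past 2-fold. With 1 library per age no test was made. For shares, each cell was thinned to 1000 UMIs with a fixed seed. Doublets were marked with Scrublet and kept.

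Genes were named if they belonged to the selection rule, to the 19 gene lists or the marker lists, or to the genes the study names for the cluster. Others were named for being among the 10 highest in the selected cells, the 15 largest log2 ratios each way per comparison (10 for the 3 other groups) in at least 25% of cells, or the 10 most variable genes. The immediate early and Y-linked lists, and 2 alternatives for P7 against P1, were added after seeing the data. The calculation was tested on simulated data. Some genes are not reported here.

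Promoters are RefSeq GRCr8 sequences, and no coordinate was taken across builds. Python 3.11.15, numpy 2.4.6, scipy 1.17.1, pandas 2.3.3, scanpy 1.11.5, anndata 0.12.19 and matplotlib 3.10.9 were used.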

Additional observations from a re-analysis of the deposited data

How the results depend on the processing

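With 1 library per age no replicate could be left out. No paired analysis was possible because each age has 1 library. Directions of 1562 gene values, most of them from leading genes, were compared over the alternatives and 4 reversed. The cause of the reversals was not tested. A reversal was counted only where the main value was past 2-fold and the sign changed. Against the other kept cells 175 values moved outside the counting interval of the main value and 155 stayed within. For P7 against P1 134 moved and 354 stayed. Against the Sfrp4 and Dlx5 cells 38 moved and 212 stayed. Against the Tac1 cells 46 moved and 194 stayed, and against the Cnmd and Cytl1 cells 84 and 166. With Ramp3 and Gpc3 limits of 16 p10k, which left 9 P1 cells, Eif2s3y went to 0.10 and Col2a1 to -0.060 in P7 against P1. With the change of the other kept cells subtracted, an alternative added after seeing the data, Pmepa1 went to -0.35 and LOC100360791 to -0.19. The share of P7 cells selected was 13.6% with a mitochondrial limit of 10%, 16.7% with limits of 4 p10k, 4.29% with limits of 16 p10k and 9.67% with at least 2 Lepr UMIs. The ratio of the P7 share to the P1 share was 4.41 with limits of 4 p10k and 60.9 with limits of 16 p10k. Thinned to 1000 UMIs before selection, 526 of 12388 P7 cells (4.25%) and 55 of 12742 P1 cells (0.432%) were selected, a ratio of 9.84. The number of genes past 2-fold from P1 to P7 was 2877 with limits of 16 p10k, 1368 with 1 CPM added in place of 10, 1482 after thinning and 79 with the change of the other kept cells subtracted. It was 595 in the 307 P7 and 94 P1 cells with Ramp3 and Gpc3 at 8 to 16 p10k. With 1 CPM added, 825 genes were past 2-fold against the other kept cells, 1053 against the Sfrp4 and Dlx5 cells, 544 against the Tac1 cells and 1137 against the Cnmd and Cytl1 cells. After thinning there were 2311 against the Sfrp4 and Dlx5 cells and 733 against the Tac1 cells. The summed UMIs limit the selected P1 cells, the selected P14 cells and the other small groups most, where 1 UMI is worth the most CPM.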
